A study of Arabidopsis thaliana with 3 samples.

Results

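The 200 nuclear protein-coding genes with the highest signal in wild-type (Col) shoots of Arabidopsis thaliana are described here, with their values in shoots of the flp-1/myb88 double mutant. They were taken from 12224 candidate genes, which are the nuclear protein-coding genes that had a probe set annotated to them alone. Where a gene had several such probe sets, the one with the highest Col mean stood for it, and the 200 genes with the highest mean log2 intensity over the 2 Col arrays were kept. The Col values therefore chose the members, and the height of those values is not a finding. The differences between genotypes use the same Col values and are given as a description.

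Shoots were taken from 10-day-old plants kept in constant light at 22 °C. The study set 1 array of flp-1/myb88 beside 2 arrays of Col, the wild-type accession, and asked which transcripts differ in a mutant with altered stomata. FLP and MYB88 are a pair of MYB transcription factors that restrain cell division late in the stomatal lineage. The labels name flp-1 but no myb88 allele, and no probe set named for either gene was used, so the mutant label could not be checked on its own genes. All 3 arrays were made from 25 ng of total RNA amplified with NuGEN's Ovation chemistry. The mutant had no replicate and was assumed to vary like Col. The labels do not tell whether the Col arrays stand for different plants, so how far those 2 arrays differ can be a technical difference. Each p-value rests mostly on that difference pooled over all 22746 probe sets, with 12.1 prior and 1 residual degrees of freedom in limma. The spread of the gene itself enters each p-value and SE only in small part.

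A green shoot cell spends much of its messenger RNA on a few jobs. Genes of the photosynthetic membrane and of carbon fixation keep the chloroplast supplied with proteins made in the cytosol, ribosomal protein genes supply the translation machinery, and many small proteins of defence, redox balance and the cell wall are also made from abundant messages. In a bulk sample, fewer cells of a type and less RNA per cell cannot be told apart. A probe set's signal also depends on how well its probes bind, so the order of 2 genes by signal is not their order by number of transcripts.

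Signs of RNA quality and amplification differed between the arrays. In 6 of 6 control pairs the gap between the 3′ and the 5′ probe set was wider on the flp-1/myb88 array than on either Col array. For the second actin pair the log2 difference was 5.15 on the flp-1/myb88 array, against 3.45 and 3.17 on the Col arrays. The part this plays in the differences below was not tested. Over all 22746 probe sets the median difference came to 0.10 log2 with the values as deposited, 0.21 after median centring of the arrays and 0.007 after cyclic loess, and the lower calls made up 54.9% of all calls as deposited, 44.8% after median centring and 66.0% with 6.06 in place of 12.1 prior degrees of freedom in limma.

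The members lay in the upper end of the signal range on all arrays. Their median log2 intensity was 10.62 on the flp-1/myb88 array, against 10.34 and 10.26 on the Col arrays. They ran from 7.01 to 12.60 on the flp-1/myb88 array, against 9.60 to 12.42 and 9.48 to 12.19 on the Col arrays. The choice by Col mean sets the low end in Col and not in flp-1/myb88, so nothing is read from the wider range. The 200 genes carried 8.35% of the summed intensity of all probe sets on the flp-1/myb88 array, against 8.13% and 7.54% on the Col arrays. Of the summed intensity of the candidate genes alone they carried 18.3% on the flp-1/myb88 array, against 18.5% and 17.1% on the Col arrays, so the flp-1/myb88 share lay between the Col shares there. At the limit, the last member was AT5G15200, with 10.65 log2 on the flp-1/myb88 array, against 10.07 and 9.51 on the Col arrays. The first gene left out was AT3G17020, with 10.31 on the flp-1/myb88 array, against 10.01 and 9.56 on the Col arrays. The Col means of the 3 genes just inside the limit were 9.79, 9.79 and 9.79, and those of the 3 just outside it were 9.79, 9.78 and 9.78, so the edge of the list is arbitrary at this precision.

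Most members differed by no more than 0.5 log2 between the genotypes. The difference of flp-1/myb88 from the Col mean was within 0.25 log2 at 36.0% of members and within 0.5 log2 at 65.0%, against 25.8% and 47.0% of the 12224 candidate genes. Its median size was 0.37 log2 for members and 0.54 log2 for candidate genes. The gap between the Col arrays was also smaller for members, with a median size of 0.18 log2, against 0.25 log2 for candidate genes. The smaller differences of members are therefore not read as greater stability between the genotypes. Signed, the median was 0.19 log2 for members and 0.10 log2 for candidate genes. The flp-1/myb88 value lay above both Col values at 120 members, below both at 60 and between them at 20.

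By limma, fitted to all 22746 probe sets at a Benjamini-Hochberg adjusted p under 0.05, 9 members were higher and 14 were lower in flp-1/myb88. These are 4.5% and 7.0% of the members, where 11.9% and 14.4% of all probe sets and 12% and 14.4% of candidate genes were called. By size, 1 member was at least 1 log2 unit above both Col arrays and 12 were that far below both, which is 0.5% and 6.0%, where the shares of all probe sets were 5.13% and 9.67%, and those of candidate genes 5.11% and 9.69%. Nothing is read from these shares, because the same Col values chose the genes. When 200 genes were chosen by the flp-1/myb88 array instead, 16% were called higher and 0% lower, and when all 3 arrays chose them the shares were 7.5% and 1.5%. The count of rises also rests on the fit, with 13.0% of members called higher by an eBayes fit with an intensity trend and 0.5% with 6.06 prior degrees of freedom. In all, the model was refitted 8 ways, with an intensity trend, robustly, after 3 other scalings of the arrays, with 16 added to each value, after a filter at the median and with 6.06 prior degrees of freedom.

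**Figure D1:**
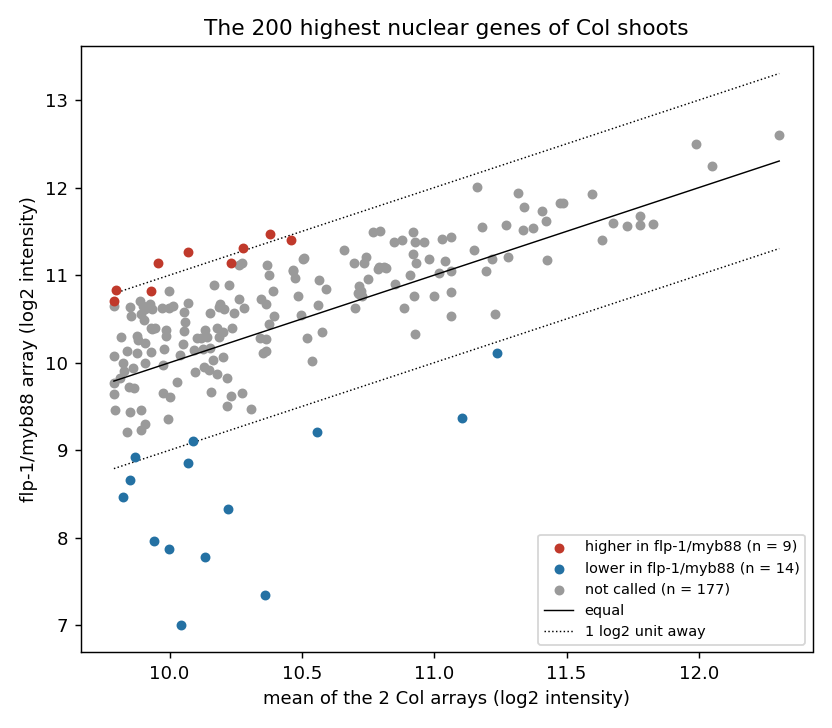
Each point is 1 of the 200 genes, with its log2 intensity on the flp-1/myb88 array on the vertical axis and the mean log2 intensity of the 2 Col arrays on the horizontal axis. The 9 genes called higher by limma lie about 1 log2 unit above the line of equal values, and the 14 called lower reach down to 7.01 on the flp-1/myb88 array.

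The 20 highest genes were largely the same in both genotypes. Of the 20, 17 were among the 20 highest on the flp-1/myb88 array and 20 among its 50 highest. AT1G54410, a small dehydrin of the kind that protects cells against drying, ranked first in both, with 12.60 log2 on the flp-1/myb88 array, against 12.42 and 12.19 on the Col arrays. CP5, which encodes a lipid-binding protein with a START domain, held rank 3 in flp-1/myb88 and rank 2 in Col, at 12.25 in flp-1/myb88 and 12.14 and 11.96 in Col. AT3G62550, of the universal stress protein family, traded places with it, at 12.50 in flp-1/myb88 and 12.13 and 11.85 in Col. None of these 3 passed the test, with differences of 0.30, 0.20 and 0.51 log2.

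Other genes at the top covered translation, protein breakdown, respiration and signalling. AT5G54940, a SUI1-type translation initiation factor, was at 11.58 in flp-1/myb88 and at 11.81 and 11.84 in Col. UBC28, a ubiquitin-conjugating enzyme, was at 11.59 in flp-1/myb88 and at 11.73 and 11.62 in Col. APA1, an aspartic protease of the vacuole, was at 11.82 in flp-1/myb88 and at 11.62 and 11.33 in Col. Each of these differed by less than 0.5 log2 and did not pass the test. Also near the top were AT4G32060, an EF-hand protein that regulates calcium entry into mitochondria (difference -0.17), and AT3G10860, a small subunit of the respiratory cytochrome bc1 complex (0.31). The Bet v 1 fold proteins AT1G23130 (0.33) and AT4G23670 (-0.07) belong to the same level. AT5G49640, AT1G09310, AT1G32460 and AT5G46020 were among the 20 highest without a function assigned here, with differences from -0.26 to 0.33.

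Of the 200 genes, 152 were placed in 18 functional classes and 48 were not placed. Placement followed the annotated symbol for 46 genes and general knowledge of the locus for 106, and it was made with the values in view.

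**Figure D2:**
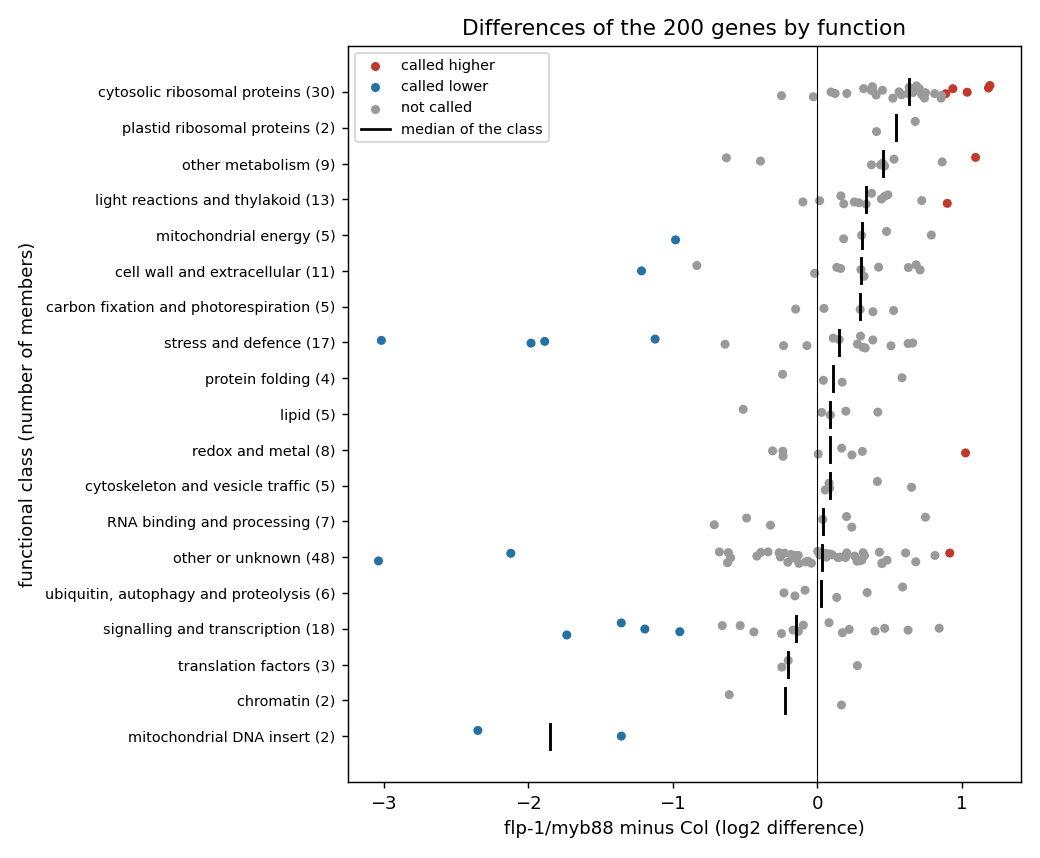
Each point is 1 member, placed by its log2 difference (flp-1/myb88 minus Col mean) on the horizontal axis and by functional class on the vertical axis, with the class median as a black bar. Of the 30 cytosolic ribosomal protein genes, 28 lie to the right of 0, with a class median of 0.63, while called falls are spread over stress, signalling, wall, mitochondrial and unplaced genes.

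Cytosolic ribosomal proteins, the parts of the ribosomes that translate nuclear messages, were the largest class, with 30 genes, and nearly all were above Col in flp-1/myb88. The size of a class depends on which loci had a probe set annotated to them alone. Of loci listed from general knowledge, 131 of 230 ribosomal ones were measured, against 10 of 56 for light reactions and 7 of 36 for carbon fixation. The size of a class is therefore not its share of the abundant transcripts. Of the 30, 28 lay above both Col arrays, 5 were called higher and 0 lower, and the median difference was 0.63 log2, against 0.14 over the other 170 members and 0.10 over all candidate genes. These proteins are encoded by families of similar copies, and a probe set may read more than 1 copy. The 0 is by limma, and AT5G27700, a protein of the small subunit, was the one gene of the class below both Col arrays, with 10.11 in flp-1/myb88 and 10.42 and 10.29 in Col, and is named for that after its values were seen. Together the 30 genes made up 17.8% of the summed member intensity on the flp-1/myb88 array, against 13.6% on each Col array. The median was 0.64 for the 11 genes of the small subunit and 0.57 for the 19 of the large subunit. Of these, 0 small subunit genes were called and 5 large subunit genes were called higher (26.3%), beside the same 12% of candidate genes. Nothing is read from this split of calls, which rests on few genes. The class median stayed positive under each scaling tried, from 0.48 after cyclic loess to 0.74 after median centring.

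Each of the 5 called genes encodes a protein of the large subunit. AT3G05560 had a log2 intensity of 11.14 on the flp-1/myb88 array, against 10.07 and 9.84 on the Col arrays, a rise of 1.19 ± 0.30 log2 (SE, limma; adjusted p = 0.0135). It was the one member at least 1 log2 above both Col arrays and the one rise still called under all 8 refits of the model. AT4G29410 had 11.26 on the flp-1/myb88 array, against 10.29 and 9.85 on the Col arrays, a rise of 1.2 ± 0.32 log2 (limma adjusted p = 0.0157). Its call was lost with 6.06 prior degrees of freedom. AT5G02870 was at 10.83 in flp-1/myb88 and at 10.12 and 9.48 in Col (1.04, limma adjusted p = 0.037), so the Col arrays themselves were 0.64 apart. AT3G06700 was at 11.40 in flp-1/myb88 and at 10.44 and 10.48 in Col (0.94, limma adjusted p = 0.0348), and AT2G34480 was at 10.82 in flp-1/myb88 and at 10.08 and 9.78 in Col (0.89, limma adjusted p = 0.0475). All 3 calls were lost after quantile normalization, cyclic loess and with 6.06 prior degrees of freedom.

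Several ribosomal genes stopped short of the threshold. AT5G20290 of the small subunit was at 11.12 in flp-1/myb88 and at 10.33 and 10.19 in Col, a difference of 0.86 log2 (limma adjusted p = 0.0502) that 4 of the 8 refits called higher. AT5G15200, also of the small subunit, differed by 0.86 (limma adjusted p = 0.0682). At the top of the class, AT1G52300 of the large subunit was at 11.73 in flp-1/myb88 and at 11.41 on both Col arrays, and AT3G53890 of the small subunit was at 11.94 in flp-1/myb88 and at 11.39 and 11.24 in Col. AT5G56710 and AT5G35530 differed by 0.37 and 0.12. Within the class, differences ran from -0.25 to 1.2 log2.

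The members are a part of the ribosomal protein genes on the array, chosen by level. From a list of 230 such loci drawn up from general knowledge after the values had been seen, 131 were measured as candidate genes. Of the 131, 41 were higher and 9 lower in flp-1/myb88 by limma, with a median difference of 0.66 log2, beside 12% higher and 14.4% lower among all candidate genes. The 101 ribosomal genes that are not members had 36 higher, 9 lower and a median of 0.68. Col replicate 2 lay below Col replicate 1 at 93 of the 131 genes, beside 143 of the 200 members and 5614 of the 12224 candidate genes. The part of this in the rise was not tested. The higher count was 60 with an intensity trend, 50 with the filter at the median, 48 after median centring and 42 in the robust fit, but 14 after quantile normalization, 25 after cyclic loess, 24 with 16 added to each value and 18 with 6.06 prior degrees of freedom.

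Nuclear genes of the light reactions and the thylakoid gave 13 members. By limma 1 was called higher (7.69%) and 0 lower, beside 12% and 14.4% of all candidate genes. Of the 13, 11 lay above both Col arrays. Their median difference was 0.34 log2, and it stayed between 0.19 and 0.45 under the scalings tried. ATPC1, the gamma subunit of the plastid ATP synthase, was at 11.13 in flp-1/myb88 and at 10.41 and 10.06 in Col, a rise of 0.90 ± 0.31 log2 (limma adjusted p = 0.0474). This call was lost under 4 of the 8 refits. The highest gene of the class, AT2G26500, a PetM-type subunit of the cytochrome b6f complex, was at 11.68 in flp-1/myb88 and at 11.81 and 11.75 in Col. AT1G52220, a protein that curves the thylakoid membrane, was at 11.54 in flp-1/myb88 and at 11.43 and 11.31 in Col. The photosystem I subunits PSAN, which faces the lumen, and PSAE-1, which takes part in ferredoxin docking, differed by 0.44 and 0.18. The antenna proteins LHCB4.2 and LHCB4.1 differed by 0.38 and 0.47. None of these passed the threshold.

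Carbon fixation and photorespiration gave 5 members, with 0 called by limma and a median of 0.30 log2. RCA, the Rubisco activase, was at 10.95 in flp-1/myb88 and at 10.66 and 10.47 in Col (0.39, limma adjusted p = 0.369). HPR, the peroxisomal hydroxypyruvate reductase, was at 10.90 in flp-1/myb88 and at 10.94 and 10.76 in Col. AT1G32470, an H protein of glycine decarboxylase, differed by 0.53, and SBPASE, the sedoheptulose-bisphosphatase of the Calvin cycle, by 0.30. PRK, the kinase that makes the CO2 acceptor of the cycle, differed by -0.15. Lists of photosynthesis loci compiled from general knowledge held 56 light reaction and 36 carbon fixation loci, of which 10 and 7 were measured and 2 and 2 called higher, with 0 lower by limma in both. The higher shares are 20% and 28.6%, on few genes, beside 12% among all candidate genes, where 14.4% were lower. The 3 called genes that are not members were PSB27, a photosystem II assembly factor, with 10.50 in flp-1/myb88 and 9.55 and 9.15 in Col, AT1G11860, the T protein of glycine decarboxylase, with 10.89 in flp-1/myb88 and 10.04 and 9.36 in Col, and AT1G56190, a phosphoglycerate kinase, with 7.98 in flp-1/myb88 and 6.89 and 6.83 in Col.

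Root genes were used to check the shoot label. Of 11 root loci, 3 were measured. The root hair expansins EXPA7 and EXPA18 were low, at 4.0 and 3.47 in flp-1/myb88, with EXPA7 at 4.54 and 3.78 and EXPA18 at 3.57 and 3.28 in Col. PYK10, the beta-glucosidase of endoplasmic reticulum bodies, which is known from roots and hypocotyls, was the ninth highest gene in Col, at 11.40 in flp-1/myb88 and at 11.66 and 11.61 in Col. Its difference of -0.23 log2 did not pass the test (limma adjusted p = 0.599). The nuclear photosynthesis genes PSAN and PSAE-1 were among the 20 highest in both genotypes.

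**Figure D3:**
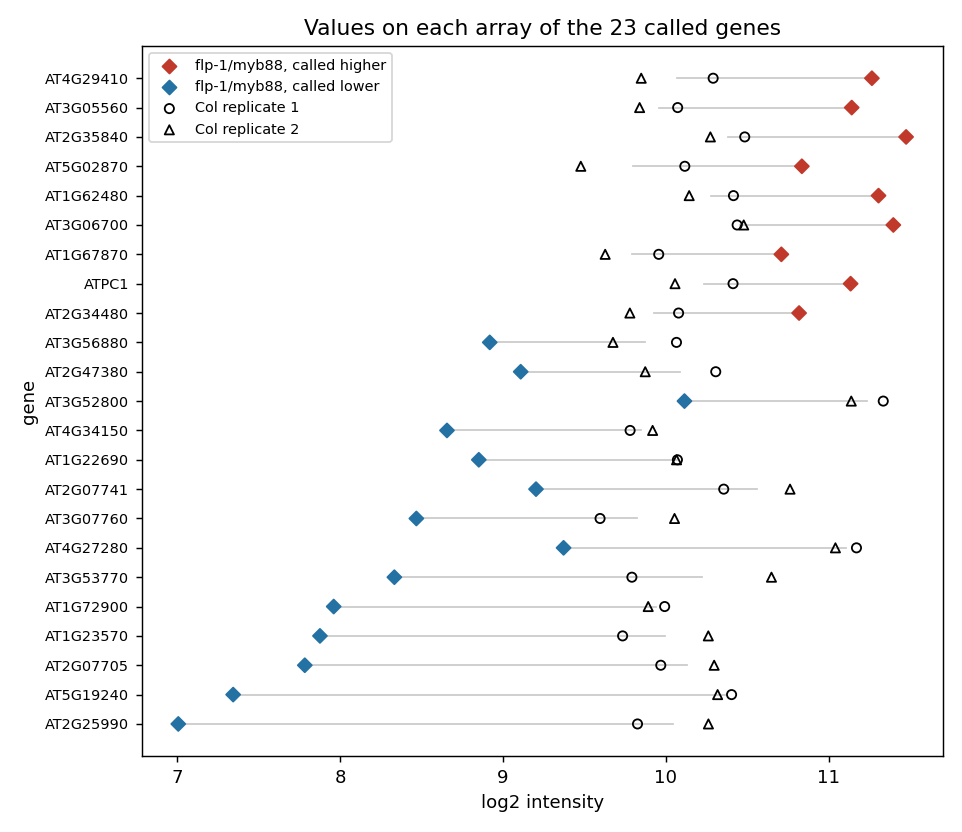
Log2 intensity on the horizontal axis of the 23 called genes, with the flp-1/myb88 array as a filled diamond and the 2 Col arrays as an open circle and an open triangle, and a grey line to the Col mean. The 14 lower genes reach differences of -3.04 and -3.02, while the 9 higher genes stop at 1.2.

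Stress and defence genes gave 17 members with 4 called lower (23.5%) and 0 higher by limma, beside 14.4% lower and 12% higher among all candidate genes, while 10 of the 17 lay above both Col arrays. The class was drawn up with the values in view, and nothing is read from its share. AT5G19240, a GPI-anchored glycoprotein, was at 7.34 in flp-1/myb88 and at 10.40 and 10.32 in Col, an 8.09-fold fall (limma adjusted p = 0.000266). AT1G72900, with the TIR domain found in immune receptors, was at 7.96 in flp-1/myb88 and at 9.99 and 9.89 in Col, a fall of 3.95-fold (limma adjusted p = 0.000841). The Col arrays lay close together at both genes, far from the flp-1/myb88 array. AT3G53770, of the late embryogenesis abundant family, was at 8.33 in flp-1/myb88 and at 9.79 and 10.65 in Col, so its fall (limma adjusted p = 0.00296) was 1.46 log2 from one Col array and 2.31 from the other. AT3G52800, an A20/AN1 zinc finger protein, was at 10.11 in flp-1/myb88 and at 11.33 and 11.14 in Col (limma adjusted p = 0.0169). The dehydrin and the universal stress protein at the head of the list lay above both Col arrays.

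Signalling and transcription gave 18 members with 4 called lower (22.2%) and 0 higher by limma, beside the same 14.4% and 12% of candidate genes. The median was -0.15 log2, and 11 genes lay below both Col arrays. AT4G27280, an EF-hand calcium-binding protein, was at 9.37 in flp-1/myb88 and at 11.17 and 11.04 in Col, a 3.33-fold fall (limma adjusted p = 0.00165) that took it to rank 478 in flp-1/myb88, against rank 29 in Col. AT3G07760, a SAM domain protein, was at 8.47 in flp-1/myb88 and at 9.60 and 10.05 in Col (limma adjusted p = 0.00876). AT4G34150, with a membrane-binding C2 domain, was at 8.66 in flp-1/myb88 and at 9.78 and 9.92 in Col (limma adjusted p = 0.0123). These 3 were called under all 8 refits, while the VQ motif protein AT3G56880, at 8.92 in flp-1/myb88 and 10.06 and 9.68 in Col (limma adjusted p = 0.0394), lost its call under 3 of them. A second EF-hand gene, AT2G46600, was at 10.53 in flp-1/myb88 and at 11.20 and 10.93 in Col, and AT3G61260, a remorin of the plasma membrane, was at 12.01 in flp-1/myb88 and at 11.43 and 10.89 in Col. Neither passed the test, with limma adjusted p = 0.212 and 0.0703. STOMAGEN, the secreted peptide that promotes stomata, is named for that role and outside the naming rule, and was at 11.21 in flp-1/myb88 and at 10.65 and 10.84 in Col (limma adjusted p = 0.27).

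Cell wall and extracellular proteins gave 11 members, of which 1 was lower (9.09%) and 0 higher by limma, beside 14.4% and 12% of candidate genes. The class median was 0.30 log2. AT1G22690, a GASA family peptide whose promoter is known for activity in guard cells, was at 8.85 in flp-1/myb88 and at 10.07 on both Col arrays, a 2.32-fold fall (limma adjusted p = 0.0108). AT4G16980, of the arabinogalactan protein family, was at 11.51 in flp-1/myb88 and at 10.93 and 10.66 in Col, and the glycine-rich protein AT4G29020 was at 11.19 in flp-1/myb88 and at 10.65 and 10.37 in Col. The intensity trend alone of the 8 refits called these 2 higher, and the fit as planned gave limma adjusted p = 0.1 and 0.113. AT1G78040, an Ole e 1 type protein, and EXGT-A3, a xyloglucan endotransglucosylase, differed by -0.02 and 0.14.

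Of 9 genes of other metabolism, 1 was called higher (11.1%) and 0 lower by limma, beside 12% and 14.4% of candidate genes. AT2G35840, a sucrose phosphatase that completes sucrose synthesis, was at 11.47 in flp-1/myb88 and at 10.48 and 10.27 in Col, a rise of 1.1 ± 0.30 log2 (limma adjusted p = 0.019). Its call was lost with 6.06 prior degrees of freedom. Of the other metabolic genes, TPI, the triose phosphate isomerase, differed by 0.53, cICDH, the cytosolic isocitrate dehydrogenase, by 0.44, and UGT88A1, a glycosyltransferase, by 0.86 (limma adjusted p = 0.0632). Among 5 nuclear genes of mitochondrial energy metabolism, 1 was called lower (20%) and 0 higher by limma, beside 14.4% and 12% of candidate genes. AT2G47380, a Vc-type subunit of cytochrome c oxidase, was at 9.11 in flp-1/myb88 and at 10.31 and 9.87 in Col (limma adjusted p = 0.0365), a fall whose call was lost under 3 refits. AT1G51650, the epsilon subunit of the mitochondrial ATP synthase, lay the other way, at 10.64 in flp-1/myb88 and at 9.94 and 9.76 in Col, without passing the test (limma adjusted p = 0.0682). AT4G21105, of the cytochrome c oxidase family, differed by 0.18.

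2 members lie in the copy of mitochondrial DNA that is known to sit in chromosome 2, and both fell. AT2G07705, an open reading frame, was at 7.78 in flp-1/myb88 and at 9.97 and 10.30 in Col (limma adjusted p = 0.000498), and AT2G07741, an ATP synthase subunit 6 type sequence, was at 9.20 in flp-1/myb88 and at 10.35 and 10.76 in Col (limma adjusted p = 0.00823). Transcripts of the nuclear copy and of the mitochondrial genome cannot be told apart by these probe sets, and the one for AT2G07741 is of the _s_at type that can match several sequences. The largest fall among members, AT2G25990, came from a probe set of the _x_at type, whose probes may also bind other transcripts. It was at 7.01 in flp-1/myb88 and at 9.83 and 10.26 in Col, an 8.21-fold fall (limma adjusted p = 0.000277). Of the other unplaced genes, AT1G23570 fell 4.35-fold, at 7.88 in flp-1/myb88 and 9.73 and 10.26 in Col (limma adjusted p = 0.000882), and AT1G67870 was at 10.71 in flp-1/myb88 and at 9.96 and 9.63 in Col (limma adjusted p = 0.0431). That rise lost its call under 4 refits.

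Several small classes had no called gene. Only 11.5% of all members were called, so a class of 2 to 7 genes can easily have none, and nothing is read from this. None of the 7 RNA binding, 6 ubiquitin, autophagy and proteolysis, 5 cytoskeleton and vesicle, 5 lipid, 4 protein folding, 3 translation factor, 2 chromatin and 2 plastid ribosomal genes was called by limma. The medians of the RNA binding, ubiquitin, cytoskeleton and lipid classes were within 0.1 log2 of 0 and changed sign with the scaling, so no direction is given. ATU2AF65A, the large subunit of the splicing factor U2AF, was at 11.13 in flp-1/myb88 and at 10.90 and 10.96 in Col, and AT3G14100, an oligouridylate-binding protein, at 10.77 in flp-1/myb88 and 10.91 and 10.55 in Col. The splicing factors AT2G02570 and AT5G09880 differed by -0.71 and -0.49. ATG8F, an autophagosome protein, differed by -0.15, and GAMMA-VPE, a vacuolar processing enzyme, by 0.13. In the cytoskeleton class, SPR1, which binds microtubules, differed by 0.42, WLIM2b, which bundles actin, by 0.65 and the SEC14 domain protein AT4G35750 by 0.09. The linker histone AT1G06760 differed by 0.17 and the BAH domain protein AT4G11560 by -0.61. The plastid ribosomal proteins AT5G24490 and AT3G54210 differed by 0.41 and 0.68.

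The lipid transfer proteins AT4G22490 and AT2G45180 differed by 0.42 and 0.09, while the GDSL lipase AT1G29670 differed by -0.51. The protein folding genes ran from -0.24 at the cyclophilin AT2G47320 to 0.59 at ATERDJ3B, a cochaperone of the endoplasmic reticulum. Among 8 redox and metal genes, AT1G62480, of a calcium-binding family of the vacuole, was at 11.31 in flp-1/myb88 and at 10.41 and 10.14 in Col, a rise of 1.03 ± 0.30 log2 (limma adjusted p = 0.0264) that was lost with 6.06 prior degrees of freedom. PRXR1, a peroxidase, and GRXC2, a glutaredoxin, each differed by -0.24. AT1G01490, with a heavy metal binding domain, was at 11.02 in flp-1/myb88 and at 10.98 and 11.06 in Col.

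The list of the 200 highest genes was shared less between flp-1/myb88 and either Col array than between the Col arrays. The flp-1/myb88 array shared 155 of its 200 highest genes with Col replicate 1 and 138 with Col replicate 2, while the Col arrays shared 167 with each other. Of the 167 that both Col arrays held, 135 were also in the top 200 of flp-1/myb88. With 1 mutant array, no test of this difference was run. Of the 200 members, 52 left the top 200 on the flp-1/myb88 array. All 14 called falls are among them, 22 went past rank 400 and 8 past rank 1000, with AT2G25990 lowest at rank 3788.

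The Col arrays were not interchangeable for these genes. Col replicate 2 lay below Col replicate 1 at 143 of 200 members, and the median difference of flp-1/myb88 was 0.30 log2 at those 143 and -0.13 at the other 57. Over the 200 genes, the difference of flp-1/myb88 from the Col mean and the gap of Col replicate 2 to Col replicate 1 had r = -0.51 and rho = -0.49, a description over genes that share the 3 arrays. Of the 9 rises, 8 were at genes where Col replicate 2 was lower, as were 7 of the 14 falls. When Col replicate 1 alone chose 200 genes and flp-1/myb88 was set against Col replicate 2, the median difference was 0.35 log2, with 16 genes at least 1 log2 higher and 7 lower. With the Col arrays in the opposite roles it was 0.083, with 1 higher and 20 lower. The median was above 0 in both roles, and since the choosing Col array sets part of these values, nothing is read from them. Among the 127 members whose Col arrays were within 0.25 log2, 3 were called higher (2.36%) and 6 lower (4.72%). The shares were 4.5% and 7.0% for all members and 12% and 14.4% for candidate genes.

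**Figure D4:**
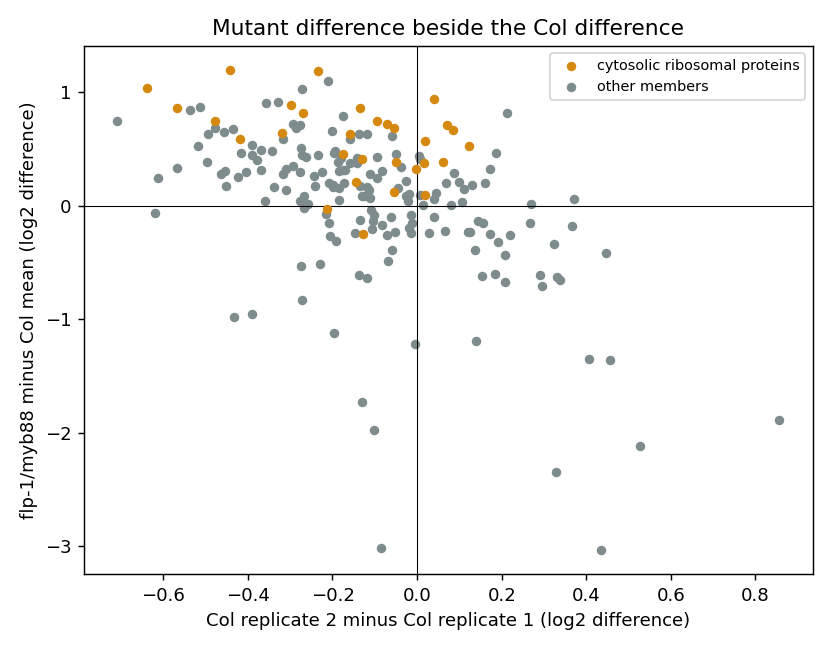
Each point is 1 member, with its log2 difference of flp-1/myb88 from the Col mean on the vertical axis and the log2 value of Col replicate 2 minus that of Col replicate 1 on the horizontal axis. Points to the left, where Col replicate 2 was lower, tend to lie above 0 (r = -0.51 over 200 genes), and 28 of the 30 ribosomal protein genes, in orange, lie above 0.

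Set beside the next levels, the members had the smallest share of calls of the first 10 groups of 200 genes. In the next 200 genes, ranked 201 to 400 in Col, 13 were called higher and 30 lower, with a median of 0.12 log2, and 1 was at least 1 log2 above both Col arrays and 21 below. Over the 9 groups that follow the members, the shares ran from 5.5% to 11.5% higher and from 14.0% to 23.5% lower. Among all candidate genes 12% were higher and 14.4% lower. Over all probe sets at or above the Col mean of the lowest member, 2.50% were higher and 17.5% lower. The small share of falls thus holds for the members and not for all probe sets at their level. All these groups were chosen by the same Col values, and no test was run between them.

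**Figure D5:**
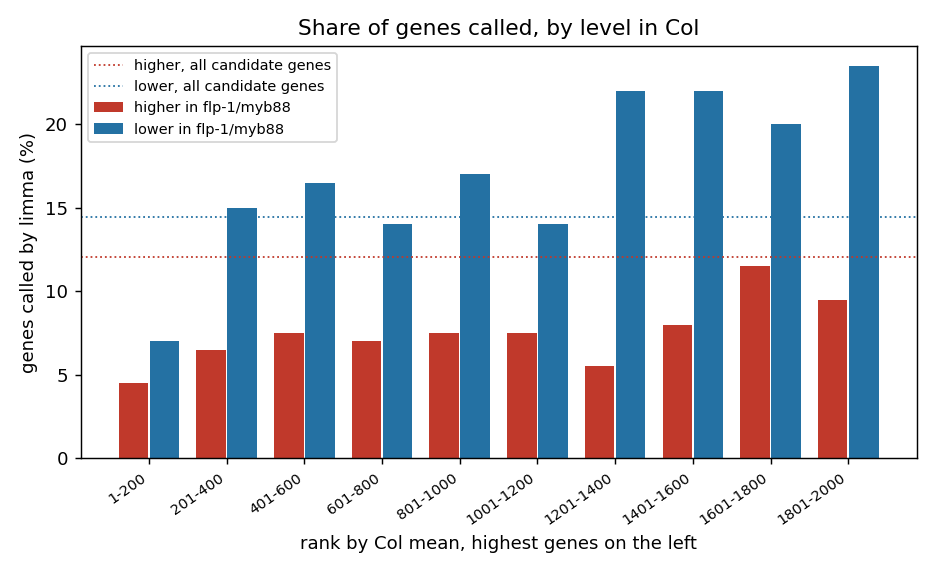
Share of genes called by limma (vertical axis, percent) in groups of 200 candidate genes ordered by Col mean (horizontal axis, the members as ranks 1 to 200 on the left), with red bars for higher and blue bars for lower in flp-1/myb88 and dotted lines for all candidate genes. The members have 4.5% higher and 7.0% lower, the lowest bars of each colour among the 10 groups.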

How the data were processed

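Shoots were profiled on 3 arrays, 1 of flp-1/myb88 and 2 of Col, grouped by their titles. The authors deposited 1 intensity for each of 22810 probe sets, made with RMA per the submitters' processing notes; neither its version nor its settings is given in the sources used here. RMA removes background, equalizes arrays and summarises probes, which can compress large differences. The deposited values ran from 6.06 to 14527 on a linear scale, so log2 was taken with no pseudocount. The 64 controls were kept out of the tests, and 0 sample columns were unused. The supplied platform annotation gave 13513 probe sets 1 gene, 503 several and 8730 none. Restriction to nuclear protein-coding genes left 12374 probe sets for 12224 genes.

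limma 3.58.1 in R 4.3.3 (lmFit and eBayes, no trend, not robust, two-sided) was fitted to 22746 probe sets and called at a Benjamini-Hochberg adjusted p under 0.05. There was 1 residual degree of freedom from the Col arrays. The prior degrees of freedom were estimated at 12.1 with a prior SD of 0.253, a poorly determined value, so a fit with 6.06, which is 0.5 of it, was added after the data were seen. The median SE of a difference was 0.30 log2 and the smallest difference called 0.854. The number of arrays limits precision. The limma fit alone was run on simulated data, with spreads drawn from the fitted prior and the mutant given the spread of Col. That simulation did not cover the choice of members, their classes or the 3′ to 5′ gaps, so nothing is read from it.

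The members, classes and lists were chosen with earlier results of these data known, and roles of loci without a symbol are general knowledge. Named genes are the 20 highest members, the 12 largest differences each way, the 4 highest of each class, the called members and those at least 1 log2 outside both Col arrays. The members LHCB4.1, LHCB4.2 and PRK are outside this rule and are named as genes of the photosynthesis lists. Sequence features of the members were not analysed here. Alternatives were the trend, robust and filtered fits, 3 scalings, 16 added before log2, each Col array left out, 100 or 400 genes, other choosing arrays, and the _at probe sets alone. Python 3.11.15 with pandas 2.3.3 and matplotlib 3.10.9 made the summaries and figures.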

Additional observations from a re-analysis of the deposited data

Results flagged for a closer look

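The control probe sets are no part of the comparison of the 200 genes, and 6 of 6 pairs had a larger 3′ minus 5′ difference on the flp-1/myb88 array than on either Col array. It was widest apart for the second actin pair, at 5.15 log2 on the flp-1/myb88 array, against 3.45 and 3.17 on the Col arrays. For the second GAPDH pair it was 1.66 on the flp-1/myb88 array, against 0.74 and 0.55 on the Col arrays. The part of the 3′ minus 5′ difference in the differences of the 200 genes was not tested.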

How the results depend on the processing

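The share of members called higher, 4.5% as planned, was 13.0% with an intensity trend, 8.0% with the filter at the median, 2.0% after quantile normalization and after cyclic loess, 2.5% with 16 added, 0.5% with 6.06 prior degrees of freedom, 2.36% where the Col arrays were within 0.25 log2 and 2.50% over all probe sets at or above the lowest member. The share called lower, 7.0%, was 4.0% for 100 genes, 11% for 400 genes and 17.5% over all those probe sets. Chosen by all 3 arrays, 7.5% were higher and 1.5% lower, and chosen by the flp-1/myb88 array 16% and 0%.

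At least 1 log2 above both Col arrays, 0.5% as planned, were 1.5% after quantile normalization, 2.0% after median centring, 0% after cyclic loess and for 100 genes, 1.0% chosen by all 3 arrays, 4.5% chosen by the flp-1/myb88 array, 0.787% within the Col limit of 0.25 and 0.156% over all probe sets at that level. Without Col replicate 1 it was 6.0%, and without Col replicate 2 it was 0.5%. Below both, 6.0% as planned, were 1.5% chosen by all 3 arrays, 0% chosen by the flp-1/myb88 array and 11.6% over all probe sets at that level. Chosen by Col replicate 1 and set against Col replicate 2, 8.0% were above and 3.5% below, and in the opposite roles 10.0% were below.

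The median difference of members, 0.19 log2, was 0.068 after quantile normalization, 0.30 after median centring, 0.061 after cyclic loess, 0.32 chosen by all 3 arrays, 0.46 chosen by the flp-1/myb88 array, 0.081 over all probe sets at that level, 0.35 and 0.083 in the 2 split choices, and between 0.11 and 0.25 with 1 Col array left out. The ribosomal class median, 0.63, was 0.56 after quantile normalization, 0.74 after median centring, 0.48 after cyclic loess and 0.56 to 0.69 with 1 Col array left out. Its 5 higher calls were 14 with the trend, 8 with the filter, 3 with 16 added, 2 after quantile normalization and cyclic loess, and 1 with 6.06 prior degrees of freedom. For 100 genes the Col arrays shared 89.0%, and flp-1/myb88 and Col replicate 2 74.0%.

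Of 9 rises, 1 was called in all 8 refits, and of 14 falls, 12. Of 89 named genes, 10 lost and 8 gained a call in some refit and 0 reversed. Small class medians changed sign: redox -0.030, RNA binding -0.029 and cytoskeleton -0.14 after quantile normalization; stress -0.012, redox -0.048, RNA binding -0.089, ubiquitin -0.052, lipid -0.023 and cytoskeleton -0.094 after cyclic loess; redox -0.010, RNA binding -0.14 and ubiquitin -0.029 without Col replicate 2. The cause of these shifts was not tested, except that lists chosen on other arrays hold other genes. Leaving out a Col array leaves no residual degrees of freedom, so those are values with no test. No paired analysis was possible because the mutant array carries no replicate number. Signal over background was not analysed here.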

Other observations

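On the flp-1/myb88 array, 52 genes took the places of the 52 members that left its top 200. Of these 52 entrants, 23 were called higher by limma, where 12% of all candidate genes were. The entrants include 9 cytosolic ribosomal protein genes, where 131 of the 12224 candidate genes were ribosomal. The entrant from furthest down was AT5G01210, with 10.22 log2 in flp-1/myb88 and 9.14 and 8.11 in Col, at rank 179 in flp-1/myb88, against rank 898 in Col. Entrants were chosen by the flp-1/myb88 array, so their direction follows from the choice. AT5G01210 was singled out after its values were seen.

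At or above the Col mean of the lowest member, 9.79 log2 or an intensity of 885, stood 639 probe sets, of which the members are 200. Another 307 had no gene in the supplied annotation, 64 were plastid genes, 40 matched several genes and 28 were other single genes. Of the 307 without a gene, 6 were called higher and 25 lower, with a median difference of 0.17 log2. Of the 64 plastid probe sets, 40 were called lower, with a median of -0.94 log2. Among all 22746 probe sets 11.9% were called higher and 14.4% lower. The Col mean chose the 639 probe sets, so these counts are a description.

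Among protein-coding genes in chromosome order, 4 pairs of members were direct neighbours, where the next 9 groups of 200 genes had 0 to 7 such pairs. The neighbours GLY2 (AT3G10850), a glyoxalase, and AT3G10860, a subunit of the cytochrome bc1 complex, differed alike from Col, by 0.31 and 0.31 log2. AT3G08930 and LHCB4.2 (AT3G08940) differed by -0.62 and 0.38 log2, and AT1G32460 and AT1G32470 by -0.26 and 0.53. AT5G40450 and AT5G40460 differed by -0.26 and -0.44, so 2 pairs had the same sign and 2 had opposite signs. None of these passed the limma threshold. The pairs were found after the values were seen.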
